A study of Rattus norvegicus with 8 samples.

Results

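The integrated stress response was followed through 10 genes in rat abdominal aorta, namely Atf4, Ddit3, Trib3, Chac1, Asns, Sesn2, Psat1, Phgdh, Ppp1r15a and Ddit4. They were picked by symbol from a table of 18090 genes, and all 10 were found there. The study compared abdominal aortas of wild-type (WT) rats in 2 groups. In 4 samples a filter paper with 10% FeCl3, an iron salt that injures the vessel and starts thrombosis, was applied outside the vessel for 5 min, and 4 controls received 0.9% saline in the same way. The design text calls the replicates of a condition biologically independent, and the labels place all of them in batch 1. The sources used here give no strain, age, sex or time to harvest. PolyA RNA was sequenced, and the deposited values are FPKM, the fragments of a gene scaled by its length and by the total of its library.

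The integrated stress response is a shared program that cells switch on when amino acids or haem run short, when proteins misfold in the endoplasmic reticulum or when double-stranded RNA appears. Kinases that sense these states phosphorylate the translation factor eIF2alpha, which slows most protein synthesis but favours translation of the transcription factor ATF4. ATF4 then raises genes of amino acid synthesis, transport and tRNA charging, and under lasting stress it acts with CHOP, the product of Ddit3. Since Atf4 is controlled largely by translation, its transcript level is only a partial readout of the pathway. In cultured cells, Trib3, Chac1 and Asns are among its most used reporter transcripts.

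ATF4 binds composite C/EBP-ATF elements, and the 250 bases before the transcription start are shown for the genes on which the text below turns and whose promoter held a searched motif. Sequences are RefSeq promoters of build GRCr8, 5′ to 3′ along the gene, with matches in capitals. All 10 members had an entry in that table. Chac1 and Trib3 are shown because they are the members with a match to TGATGNAA (read on both strands), Ppp1r15a for its match to the cAMP response element TGACGTCA, and Aars1, an alanyl-tRNA synthetase chosen after its values were seen, as one of the wider pathway genes whose groups did not overlap.
Chac1, chr3:126795881-126796130, plus strand: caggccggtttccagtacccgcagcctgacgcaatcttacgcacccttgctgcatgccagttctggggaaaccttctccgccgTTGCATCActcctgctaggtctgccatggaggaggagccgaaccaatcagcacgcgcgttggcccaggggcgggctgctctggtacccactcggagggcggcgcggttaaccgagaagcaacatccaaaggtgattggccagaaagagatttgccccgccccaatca
Trib3, chr3:161275534-161275783, minus strand: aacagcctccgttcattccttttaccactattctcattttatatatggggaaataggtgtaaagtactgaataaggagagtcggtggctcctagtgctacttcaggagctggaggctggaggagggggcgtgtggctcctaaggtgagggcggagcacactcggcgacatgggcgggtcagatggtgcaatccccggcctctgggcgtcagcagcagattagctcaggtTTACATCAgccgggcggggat
Ppp1r15a, chr1:105139597-105139846, minus strand: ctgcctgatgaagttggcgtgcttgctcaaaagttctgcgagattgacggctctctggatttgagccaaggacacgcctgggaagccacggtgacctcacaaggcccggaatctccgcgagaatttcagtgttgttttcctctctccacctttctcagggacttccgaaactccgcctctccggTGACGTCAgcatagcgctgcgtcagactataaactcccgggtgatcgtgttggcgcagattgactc
Aars1, chr19:55908232-55908481, plus strand: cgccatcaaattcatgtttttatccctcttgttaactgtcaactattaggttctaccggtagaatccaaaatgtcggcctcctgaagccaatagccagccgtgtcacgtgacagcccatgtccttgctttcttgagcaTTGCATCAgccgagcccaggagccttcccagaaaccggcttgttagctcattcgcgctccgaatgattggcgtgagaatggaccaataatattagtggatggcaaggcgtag
The TGATGNAA match began 167 bases before the start in Chac1 and 21 bases before it in Trib3. In Aars1 it began 112 bases before the start, and Aars1 had another match from base 10 after it, outside the sequence shown. The TGACGTCA match of Ppp1r15a began 66 bases before the start. Of 33469 promoters of 300 bases (250 before and 50 after the start), 3.98% held TGATGNAA and 1.83% held TGACGTCA, and no matches overlapped in the genes shown. The other 7 members held neither string in this window, which says nothing of elements elsewhere. Among 17 promoters of aminoacyl-tRNA synthetase genes, 7 held TGATGNAA (Aars1, Cars1, Iars1, Mars1, Nars1, Tars1 and Yars1). These matches are descriptions of letters, and binding was not measured.

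In none of the 10 genes did FeCl3 aortas separate from saline aortas. A gene was tested on log2(FPKM + 1), a scale that makes changes of weakly expressed genes look smaller, when it had at least 1 FPKM in at least 4 of the 8 libraries. Of the 10 members 8 were tested, and limma called 0 of the 8 at a Benjamini-Hochberg adjusted p under 0.05, where 0% of all 11921 tested genes were called. The smallest adjusted p among members was 0.490. At an unadjusted p under 0.05, 0 of 8 members were found, beside 4.42% of all tested genes higher and 12.2% lower after FeCl3, and limma voom on recovered fragments also called 0 members. In all 10 members the values of the FeCl3 and saline aortas overlapped. Of all tested genes 1.06% were higher and 8.75% lower after FeCl3 without overlap, and for so few members a count of 0 is not far from these shares. With median-of-ratios scaling 0 tested members separated either (4.24% of tested genes higher, 3.46% lower), nor with haemoglobin left out of the totals (4.19% higher, 2.64% lower). Log2 fold changes were positive in 4 tested members (29.8% of all tested genes) and negative in 4 (70.2%), with a median of 0.04, where the median over all tested genes was -0.25. That split depended on scaling: 6 were positive and 2 negative with median-of-ratios scaling or haemoglobin-free totals, and 0 positive and 8 negative after rescaling to TPM, where 0 members but 27.6% of all tested genes were called. Without FeCl3 replicate 2 it was 1 positive and 7 negative, and without saline replicate 1 it was 2 and 6.

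**Figure D1:**
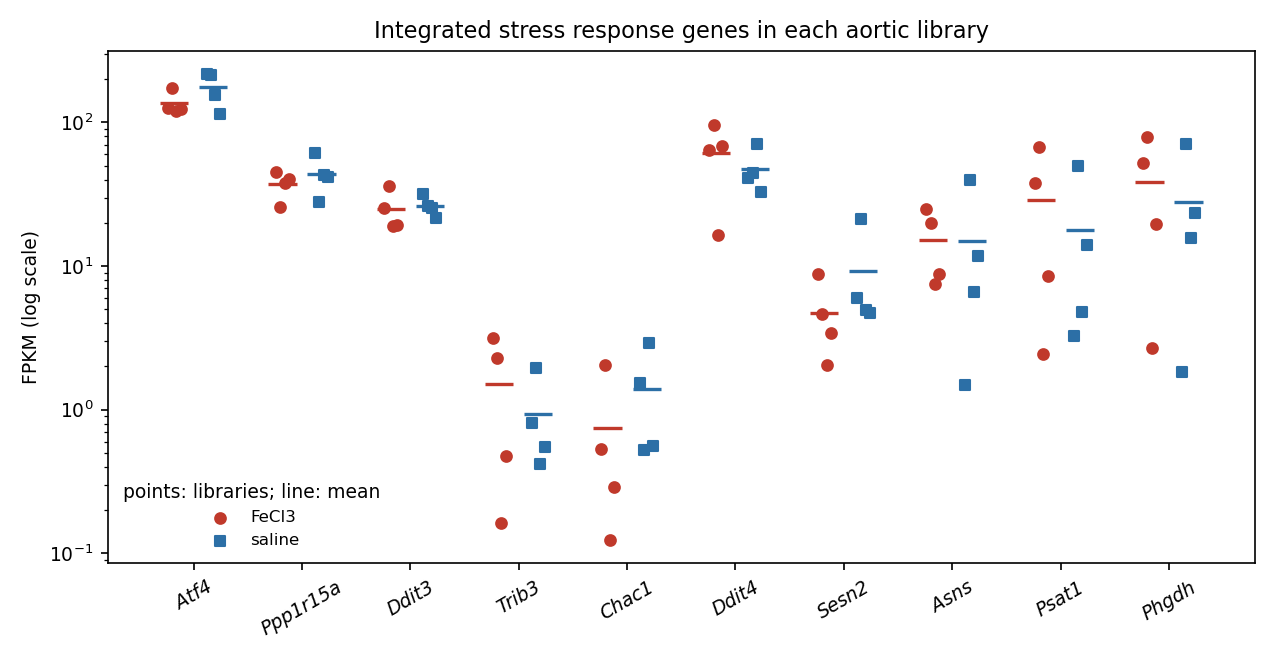
FPKM (log axis) of the 10 members in each of 4 FeCl3 libraries (circles) and 4 saline libraries (squares), with the group mean as a line. The groups overlap in every gene. The spread within a group is narrow for Atf4, Ppp1r15a and Ddit3 and wide for Phgdh, Psat1, Asns, Trib3 and Chac1.

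Facts of the libraries that bear on these values are the following. Totals recovered from the FPKM steps ran from 24304434 to 30283292 fragments. Haemoglobin genes took 16.4% to 34.1% of fragments in FeCl3 libraries and 1.30% to 16.5% in saline libraries, and this share was not removed from the FPKM values. All 9 smooth muscle markers, Myh11 among them, were at 1 FPKM or more in every library, as the labelled tissue would have. Saline replicate 1 stood apart. Its 13 matched heat shock genes summed to 21011 FPKM, against 1217 to 1844 FPKM in FeCl3 libraries and 1674 to 2512 FPKM in the other saline libraries. In that library 6 of 12 leukocyte markers and 3 of 8 adipocyte markers were at 0. Saline replicate 4 had red cell and platelet markers at levels near those of FeCl3 libraries (285918 FPKM summed over red cell genes, against 284922 to 614038 FPKM in FeCl3 libraries and 22674 to 28359 FPKM in the other controls).

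Atf4, the transcription factor at the centre of the response, was the most abundant member at the transcript level. It measured 126, 175, 120 and 124 FPKM in FeCl3 replicates 1 to 4, against 217, 215, 156 and 115 FPKM in saline replicates 1 to 4. Saline replicates 1 and 2 were above every FeCl3 library and saline replicate 4 was below every one of them. The means were 136 ± 26 FPKM after FeCl3 and 176 ± 49.3 FPKM after saline (SD, n = 4 each), a log2 fold change of -0.34 ± 0.28 SE (95% interval -0.97 to 0.29, limma adjusted p = 0.537). It was 0.36 ± 0.40 SE when a library's haemoglobin level entered the fit as a covariate, and -0.02 when haemoglobin genes were left out of the library totals. Only saline replicate 4 among controls had a haemoglobin share near those of FeCl3 libraries. The covariate fit can therefore hardly separate treatment from haemoglobin, and its smallest limma adjusted p over all genes was 0.9997. Fold changes from it, here and below, do not show what remains after adjustment for blood.

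Ddit3 encodes CHOP, a factor that acts beside ATF4 and can promote cell death. It had 25.4, 36.0, 18.9 and 19.3 FPKM after FeCl3, against 31.6, 26.1, 25.6 and 21.7 FPKM after saline. FeCl3 replicate 2 was the highest of the 8 and FeCl3 replicates 3 and 4 the lowest, so the saline values lay inside the FeCl3 range. The log2 fold change was -0.11 ± 0.25 SE (95% interval -0.69 to 0.47, limma adjusted p = 0.842), and it turned to 0.12 with median-of-ratios scaling and to 0.20 with haemoglobin left out of the totals. Without FeCl3 replicate 3 it was 0.0011. In the RefSeq annotation of GRCr8 the Ddit3 gene overlaps Mars1 and a further gene model, and whether counting used strand was not given, so reads of that stretch may be shared.

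Ppp1r15a encodes GADD34, the stress-induced subunit that brings a phosphatase to eIF2alpha and so ends the response. It measured 44.9, 25.8, 37.7 and 40.2 FPKM after FeCl3 and 61.0, 27.9, 43.3 and 41.7 FPKM after saline. Saline replicate 1 was the highest and FeCl3 replicate 2 the lowest, followed by saline replicate 2, and the other 5 libraries lay between 37.7 and 44.9 FPKM. The log2 fold change was -0.20 ± 0.29 SE (limma adjusted p = 0.735). It was 0.029 with median-of-ratios scaling. These 3 genes of the core varied somewhat less between libraries of a group than the typical tested gene. The residual SD on the log2 scale was 0.35 for Atf4, 0.33 for Ddit3 and 0.40 for Ppp1r15a, where the median over all tested genes was 0.45.

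**Figure D2:**
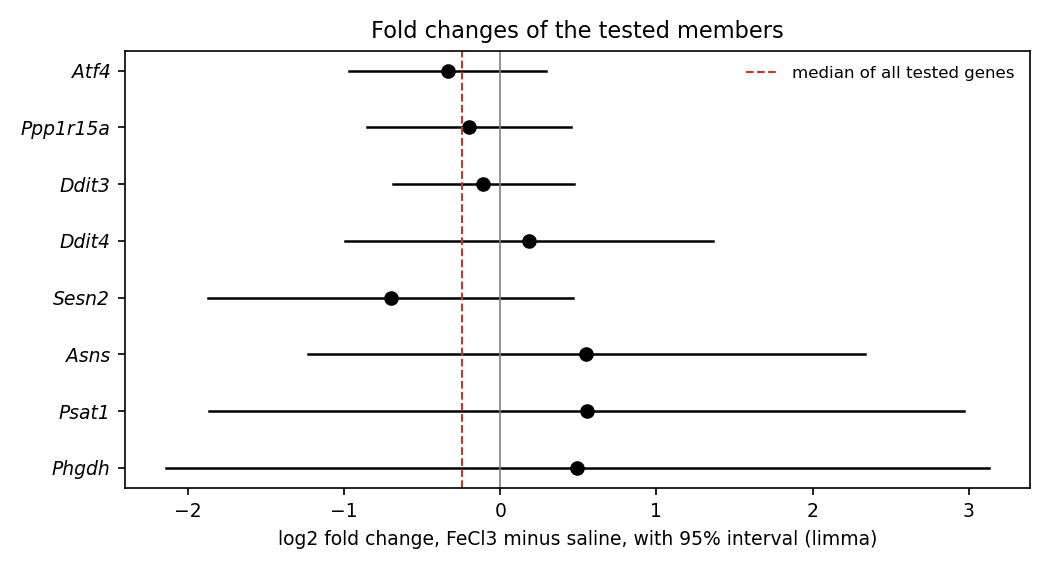
Log2 fold changes (FeCl3 minus saline) of the 8 tested members on the log2(FPKM + 1) scale, with 95% limma intervals, beside the median of all tested genes at -0.25 (dashed). Every interval spans 0, and the intervals of Phgdh, Psat1 and Asns are the widest.

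Trib3 and Chac1, reporters that lie downstream of ATF4 and CHOP, had the lowest levels among the members, stayed under the filter and were not tested. Trib3, a pseudokinase that restrains Akt and feeds back on ATF4, had 3.14, 2.30, 0.163 and 0.474 FPKM after FeCl3, against 0.808, 1.96, 0.419 and 0.552 FPKM after saline. FeCl3 replicates 1 and 2 and saline replicate 2 were high and the other 5 libraries low, in both groups alike. The lowest value rested on 6 fragments (95% exact Poisson interval 2.20 to 13.1) and the highest on 118 (97.7 to 141); such intervals cover counting error only. Trib3 therefore differed between FeCl3 libraries 19.3-fold, beyond counting error.

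Chac1, an enzyme that breaks down glutathione and is induced by ATF4, had 0.534, 2.05, 0.124 and 0.288 FPKM after FeCl3 and 1.54, 0.524, 2.93 and 0.554 FPKM after saline. Its high libraries were saline replicates 3 and 1 and FeCl3 replicate 2, a different set from that of Trib3. The lowest, FeCl3 replicate 3, rested on 5 fragments (95% exact Poisson interval 1.62 to 11.7), and the highest, saline replicate 3, on 138 (116 to 163). When no filter on low values was used, the log2 fold changes were 0.25 ± 0.45 SE for Trib3 and -0.45 ± 0.41 SE for Chac1 (limma adjusted p of 0.811 and 0.663, and 0.798 and 0.619 with a filter on the mean level).

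Sesn2 and Ddit4 encode inhibitors of the growth kinase complex mTORC1 that stress raises. Sesn2, or sestrin 2, had 8.87, 4.66, 2.03 and 3.42 FPKM after FeCl3 and 6.01, 21.1, 4.91 and 4.72 FPKM after saline. Saline replicate 2 was the highest by far, and 3 of the 4 FeCl3 libraries lay below all 4 controls. The log2 fold change was -0.70 ± 0.51 SE (95% interval -1.87 to 0.47, limma adjusted p = 0.490), the most negative among the tested members. It was 0.13 ± 0.87 SE with the haemoglobin covariate. The Sesn2 gene overlaps a long noncoding RNA in the same annotation, so the same limit on shared reads holds.

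Ddit4, also called REDD1, which hypoxia and glucocorticoids raise too, had 64.6, 95.7, 16.5 and 68.3 FPKM after FeCl3, against 40.9, 44.6, 70.9 and 32.6 FPKM after saline. FeCl3 replicate 3 was the lowest of all 8 libraries while the other 3 FeCl3 libraries exceeded 3 of the 4 controls. The log2 fold change was 0.18 ± 0.52 SE (95% interval -0.99 to 1.36, limma adjusted p = 0.872), and it was -0.11 without FeCl3 replicate 2.

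The members that varied most between libraries were enzymes that make amino acids. Phgdh catalyses the first step of serine synthesis from a glycolytic intermediate. It had 51.8, 79.0, 2.67 and 19.8 FPKM after FeCl3 and 1.83, 70.3, 15.6 and 23.5 FPKM after saline. FeCl3 replicates 1 and 2 and saline replicate 2 were high, and FeCl3 replicate 3 and saline replicate 1 were low. The highest library exceeded the lowest 29.6-fold among FeCl3 aortas and 38.4-fold among saline aortas. The means were 38.3 ± 33.9 FPKM after FeCl3 and 27.8 ± 29.7 FPKM after saline (SD, n = 4 each), with a log2 fold change of 0.49 ± 1.16 SE (95% interval -2.14 to 3.13, limma adjusted p = 0.843). It was -0.37 without saline replicate 1 and -0.09 without FeCl3 replicate 2.

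Psat1, the aminotransferase of the next step, had 38.2, 67.1, 2.44 and 8.48 FPKM after FeCl3 and 3.27, 49.4, 4.80 and 14.1 FPKM after saline. The same 3 libraries as for Phgdh were the highest. Its log2 fold change was 0.55 ± 1.06 SE (95% interval -1.86 to 2.97, limma adjusted p = 0.804), and it was -0.11 without FeCl3 replicate 2.

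Asns, the enzyme that makes asparagine, had 24.8, 19.9, 7.53 and 8.75 FPKM after FeCl3 and 1.49, 39.5, 6.63 and 11.7 FPKM after saline. Saline replicate 1 was the lowest library and saline replicate 2 the highest, a 26.5-fold range within the control group. The log2 fold change was 0.55 ± 0.78 SE (95% interval -1.23 to 2.33, limma adjusted p = 0.731), and it was -0.11 without saline replicate 1. The residual SD on the log2 scale was 1.96 for Phgdh, 1.79 for Psat1 and 1.31 for Asns, larger than in 98.3%, 97.7% and 93.7% of all tested genes.

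These enzymes were highest and lowest in the same libraries as the summed adipocyte markers. Adipocyte markers (8 genes, among them adiponectin, Adipoq, and the lipid droplet protein Plin1) summed to 12246, 11147, 482 and 2974 FPKM in FeCl3 replicates 1 to 4, against 27.7, 15430, 420 and 1944 FPKM in saline replicates 1 to 4. The 3 highest libraries for these markers, FeCl3 replicates 1 and 2 and saline replicate 2, were also the 3 highest for Phgdh, Psat1 and Asns, which is 3 of the 8 tested members, beside 7.54% of all tested genes. Trib3, which was not tested, had the same 3 on top but other libraries lowest. The 3 lowest, FeCl3 replicate 3 and saline replicates 1 and 3, were the 3 lowest for Phgdh, Psat1 and Asns. The sum of the 9 endothelial markers had the same 3 lowest libraries, but FeCl3 replicate 4 and saline replicates 2 and 4 were its highest. The share of all tested genes with these 3 lowest was not counted. Adipoq measured 1664, 1146, 74.4 and 452 FPKM after FeCl3 and 0.200, 702, 27.5 and 376 FPKM after saline, and Plin1 was 0.122 FPKM in saline replicate 1. Of the 8 markers, 6 had the same 3 highest libraries as the sum, and Lep and Ucp1 did not. Ucp1, a gene of thermogenic fat, had 0.350, 76.5, 0.356 and 0.692 FPKM after FeCl3 and 0.0275, 6272, 53.1 and 11.7 FPKM after saline.

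Smooth muscle markers ran the other way. Their 9 genes summed to 3981, 7409, 11443 and 11136 FPKM in FeCl3 libraries and to 28445, 5483, 16158 and 10556 FPKM in saline libraries, so that the libraries with the most adipocyte RNA had the least smooth muscle RNA. This comparison was added after the values were seen, and the part of any marker list in the levels of Phgdh, Psat1 and Asns was not tested. In bulk tissue, fewer cells of a type and less RNA per cell cannot be told apart. Psph, the last enzyme of serine synthesis, also named after its values were seen, had 13.9, 25.5, 4.51 and 7.47 FPKM after FeCl3 and 1.73, 18, 6.48 and 8.08 FPKM after saline, with the same 3 libraries highest. Mthfd2, a mitochondrial folate enzyme that ATF4 also raises, had 11.1, 32.9, 11.5 and 28.4 FPKM after FeCl3 and 51.3, 5.69, 45.9 and 19.3 FPKM after saline. It was highest in saline replicates 1 and 3, where Phgdh, Psat1 and Asns were low. The 3 libraries highest for Psph were also highest for Cebpb, Slc1a5, Eif4ebp1 and Syap1, which are not enzymes of amino acid synthesis. How many pathway genes had these 3 highest was not counted.

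**Figure D3:**
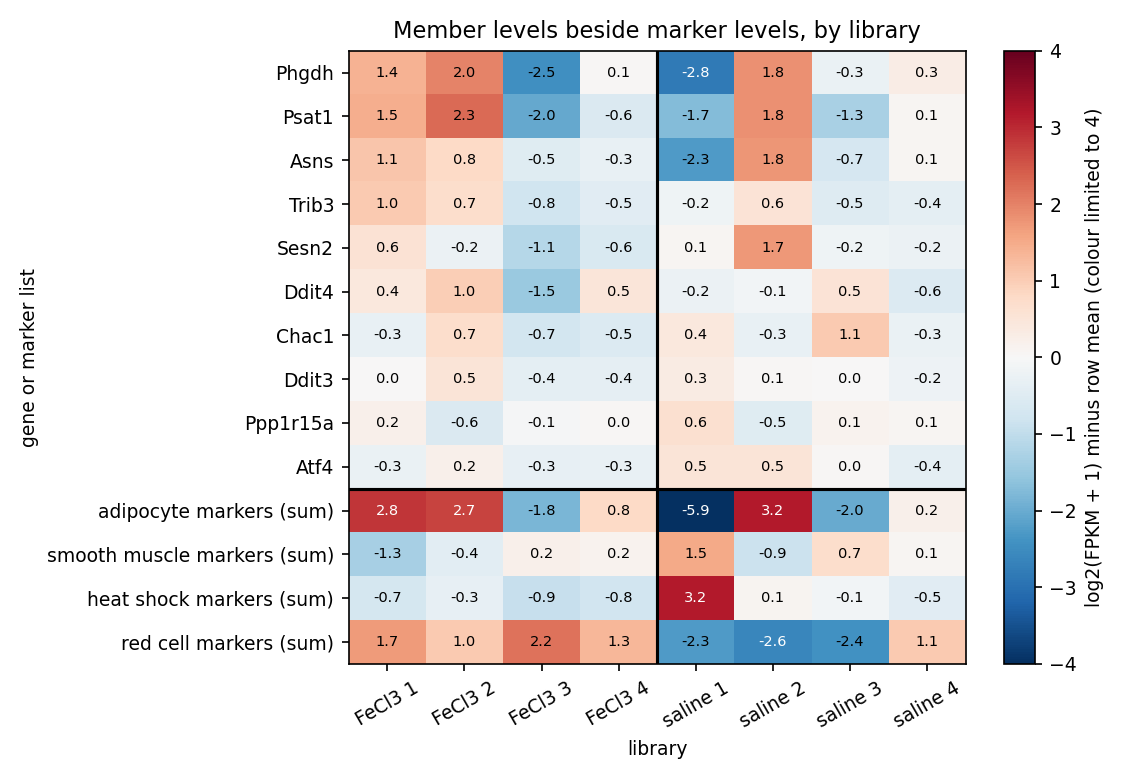
Each row gives log2(FPKM + 1) minus its mean over the 8 libraries, for the 10 members and, below the line, for the summed level of 4 marker lists. Phgdh, Psat1, Asns and the adipocyte row share their 3 highest libraries (FeCl3 replicates 1 and 2 and saline replicate 2) and their 3 lowest. Atf4, Ddit3 and Ppp1r15a change less than the other members, and the heat shock row is high in saline replicate 1.

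The members thus did not form 1 pattern. The mean standardised level of the 8 tested members was highest in saline replicate 2 (0.71) and FeCl3 replicate 2 (0.59) and lowest in FeCl3 replicate 3 (-1.06). The 5 tested genes outside the members with the highest Pearson correlation to this profile over the 8 libraries were Syap1, Mkln1, Slc30a6, Plaur and Pnpla8, with r of 0.98, 0.96, 0.96, 0.96 and 0.96. Syap1 had 42.9, 44.2, 19.1 and 24.8 FPKM after FeCl3 and 29.6, 51.9, 29.9 and 26.9 FPKM after saline. These correlations are the highest among all tested genes and rest on 8 libraries, so they describe likeness only.

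Of the kinases that start the response, none passed the test. Eif2ak1 encodes HRI, which senses haem shortage, and measured 16.1 ± 3.95 FPKM after FeCl3 and 16.7 ± 3.48 FPKM after saline. Eif2ak2 (PKR, which senses double-stranded RNA) had 9.88 ± 2.07 and 12.2 ± 3.98 FPKM, Eif2ak3 (PERK, which senses endoplasmic reticulum stress) 6.30 ± 1.78 and 6.82 ± 2.59 FPKM, and Eif2ak4 (GCN2, which senses uncharged tRNA) 2.67 ± 0.468 and 4.09 ± 1.28 FPKM, FeCl3 and saline means in that order (SD, n = 4 each). Ppp1r15b, the constitutive partner of the eIF2alpha phosphatase, had 10.2 ± 3.24 FPKM after FeCl3 and 15.0 ± 7.81 FPKM after saline. Of the 9 kinase and phosphatase genes limma called 0, and the values of the groups overlapped in all 9. The catalytic subunits Ppp1ca and Ppp1cb measured 107 ± 26 and 97.1 ± 14.2 FPKM after FeCl3, against 96.4 ± 35.8 and 115 ± 34.4 FPKM after saline.

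The 8 subunits of eIF2 and of its exchange factor eIF2B also had 0 calls, with a median log2 fold change of -0.25, equal to that of all tested genes. Eif2s1, which encodes the phosphorylated subunit eIF2alpha, had 52.0 ± 13.1 FPKM after FeCl3 and 50.6 ± 8.22 FPKM after saline, and Eif2s2 102 ± 37.0 and 112 ± 34.5 FPKM (SD, n = 4 each). Among 11 transcription factors that act beside ATF4, 0 were called and the median was -0.27. Atf3, a stress factor and ATF4 target, had 79.8, 11.4, 11.9 and 41.5 FPKM after FeCl3 and 25.4, 28.7, 34.1 and 16.7 FPKM after saline, with both the 2 highest and the 2 lowest libraries from FeCl3 aortas. Cebpb measured 82.3 ± 56.1 FPKM after FeCl3 and 120 ± 105 FPKM after saline, and Nupr1 462 ± 196 and 575 ± 447 FPKM (SD, n = 4 each). Atf6, a sensor of endoplasmic reticulum stress, had 7.23, 8.57, 6.30 and 9.87 FPKM after FeCl3, against 18.6, 12.4, 13.4 and 13 FPKM after saline. Its groups did not overlap (log2 fold change -0.77 ± 0.22 SE, limma adjusted p = 0.245). Atf6 was named for that after its values were seen. It was the only factor of the 11 lower without overlap (9.09%, beside 8.75% of all tested genes).

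Aminoacyl-tRNA synthetases, which charge tRNAs and many of which are ATF4 targets, leaned lower after FeCl3, although none passed the test. Of 20 listed, 19 were found and tested, and 18 of the 19 had a negative fold change, where 70.2% of all tested genes did. Their median was -0.55. Relative to haemoglobin-free totals 14 of 19 were negative with a median of -0.25 (all genes 0.01), and with median-of-ratios scaling 16 of 19 with a median of -0.32 (all genes -0.05). With the haemoglobin covariate, which can hardly be separated from treatment, 12 of 19 were negative with a median of -0.17 (all genes -0.16). After rescaling to TPM, which moved the median of all genes to -0.90, 13 of the 19 were called, as were 27.6% of all tested genes. The groups did not overlap in 5 of the 19, which is 26.3% beside 8.75% of all tested genes, and these were Aars1, Cars, Eprs, Nars1 and Tars1. With haemoglobin left out of the totals the same 5 did not overlap (26.3%, against 2.64% of all tested genes), and with median-of-ratios scaling 2 did not (10.5%, against 3.46%).

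Aars1 had 15.8, 16.5, 10.3 and 13.8 FPKM after FeCl3, against 51.4, 35.1, 35.3 and 21.5 FPKM after saline. Every FeCl3 library lay below every control, and saline replicate 1, the library rich in heat shock transcripts, was the highest. The log2 fold change was -1.24 ± 0.29 SE (limma adjusted p = 0.245). Without saline replicate 4, the lowest control, it was -1.46 with a limma adjusted p of 0.0498, where 160 of all 11921 tested genes were called. Over 22 alternatives the limma adjusted p of Aars1 ran from 0.0408 to 0.9997. It passed in 2, this fit and the one on TPM, where 27.6% of all tested genes were called. Its fold change ran from -1.98 (TPM) to -0.45 ± 0.40 SE (haemoglobin covariate). Nars1, the asparaginyl-tRNA synthetase, had 27.2, 23.4, 17.2 and 24.0 FPKM after FeCl3 and 47.2, 40.6, 55.4 and 31.0 FPKM after saline (log2 fold change -0.88 ± 0.25 SE, limma adjusted p = 0.245). Sars1, the seryl-tRNA synthetase, had 29.7 ± 7.33 FPKM after FeCl3 and 42.8 ± 5.48 FPKM after saline (SD, n = 4 each), with a difference of -0.54 ± 0.25 SE on the log2 scale (limma, adjusted p = 0.310), and Kars 33.2 ± 10.1 and 39.5 ± 9.58 FPKM. Smooth muscle markers also leaned lower after FeCl3 (9 of 9 negative, median -0.996), and their part in the synthetase levels was not tested.

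Amino acid transporters had fold changes of both signs. Of 10 listed, 9 were tested and 0 called, with a median of -0.38. Slc38a2, a neutral amino acid transporter that amino acid shortage raises, had 40.3, 39.0, 33.7 and 51.8 FPKM after FeCl3 and 91.6, 84.4, 62.2 and 42.8 FPKM after saline (log2 fold change -0.71 ± 0.28 SE, limma adjusted p = 0.278). Of the controls, saline replicate 4 lay within the FeCl3 range. With the haemoglobin covariate its fold change was 0.053. Slc3a2, the heavy chain shared by several transporters, measured 49.98 ± 9.91 FPKM after FeCl3 and 54.3 ± 10.8 FPKM after saline (SD, n = 4 each). Slc43a1, named after its values were seen as the only pathway gene higher without overlap, had 23.8, 9.31, 8.84 and 7.49 FPKM after FeCl3, against 1.13, 6.18, 1.51 and 6.41 FPKM after saline (log2 fold change 1.56 ± 0.52 SE, limma adjusted p = 0.255). It is 1.02% of the 98 tested pathway genes outside the members, where 1.06% of all tested genes were higher without overlap.

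Of 12 enzymes of serine, glycine, one-carbon and proline metabolism beyond Phgdh and Psat1, 10 were tested and 0 called, with a median of -0.21. Got1, an aspartate aminotransferase, had 20.2, 6.58, 6.47 and 7.77 FPKM after FeCl3 and 6.78, 35.4, 46.8 and 24.3 FPKM after saline (log2 fold change -1.26 ± 0.59 SE, limma adjusted p = 0.316). Of 20 further ATF4 and CHOP targets, 15 were tested and 0 called, with a median of -0.23. Map1lc3b and Sqstm1 both act in autophagy. Map1lc3b had 126 ± 41.9 FPKM after FeCl3 and 79.5 ± 29.9 FPKM after saline (SD, n = 4 each), a log2 difference of 0.69 ± 0.36 SE with a limma adjusted p of 0.352, and it was -0.043 after rescaling to TPM and -0.0048 with the haemoglobin covariate. Sqstm1 had 78.8 ± 32.1 FPKM after FeCl3 and 116 ± 29.7 FPKM after saline, a log2 difference of -0.60 ± 0.31 SE with a limma adjusted p of 0.351.

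Endoplasmic reticulum chaperones, targets of the neighbouring unfolded protein response, had 0 calls among 17, with a median of -0.24. Calr and Pdia3 measured 253 ± 32.2 and 239 ± 69.0 FPKM after FeCl3, against 267 ± 10.5 and 232 ± 36.3 FPKM after saline (SD, n = 4 each). In 3 of the 17 (Canx, Hyou1 and Syvn1) the FeCl3 values lay below all saline values, 17.6% beside 8.75% of all tested genes, and with haemoglobin left out of the totals only Hyou1 remained (5.88% beside 2.64%). Across the 8 lists outside the members, 98 entries were tested, 0 were called, and 10 (10.2%) were lower without overlap, where 8.75% of all tested genes were. It was 7 (7.14%, against 2.64% of all tested genes) with haemoglobin left out of the totals and 5 (5.1%, against 3.46%) with median-of-ratios scaling.

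**Figure D4:**
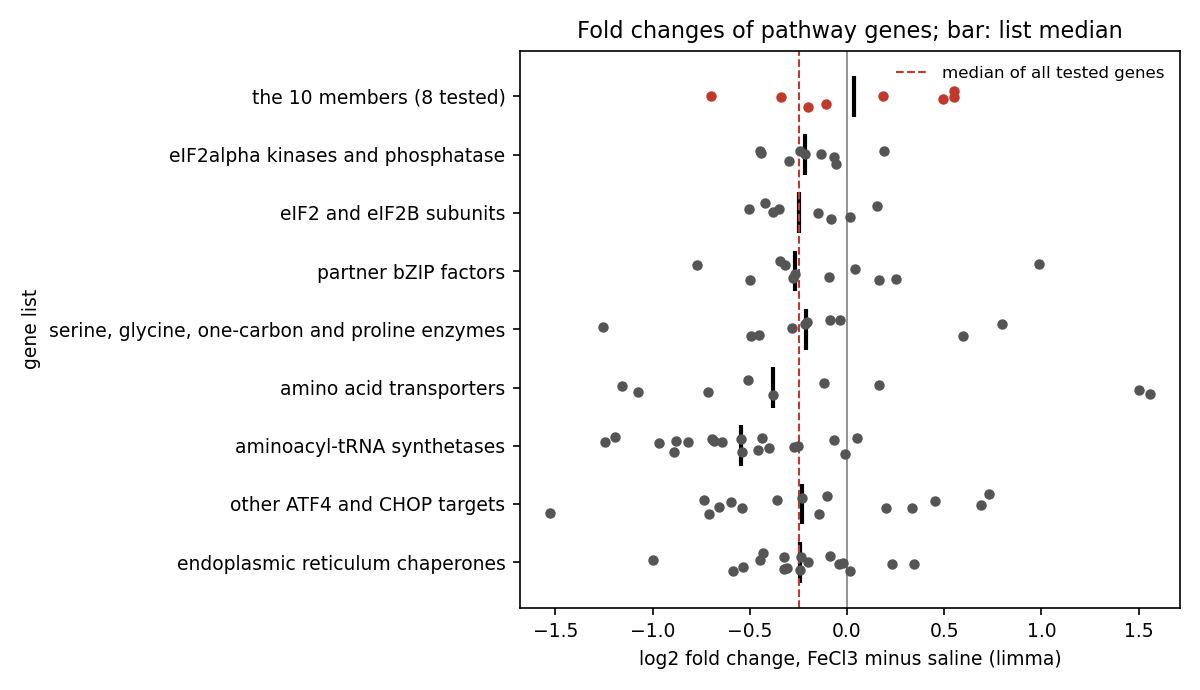
Log2 fold change (FeCl3 minus saline) of each tested gene by pathway list, with the list median as a bar and the median of all tested genes, -0.25, as a dashed line. The synthetases lie to the left with a median of -0.55, and the members are spread from -0.70 to 0.55.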

How the data were processed

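PolyA RNA-seq libraries of 8 rat aortas were analysed. The authors deposited 1 FPKM value per gene and library; per the submitters' processing notes, fastp, HISAT2 and HTSeq were used with build mRatBN7.2, and the sources used here state no versions, annotation or gene lengths. Groups came from the treatment label and columns from sample titles, with 0 value columns left unmapped. Log2(FPKM + 1) was fitted over all 11921 genes with limma 3.58.1 in R 4.3.3 (trend, two-sided, Benjamini-Hochberg). Its p-values set the group difference against the spread between samples of a group, with a prior on that spread shared by all genes. Totals and fragments were recovered from FPKM steps (whole within 0.02 for 99.92% of genes; 1 gene, Hbb, was doubled) and used for counting intervals, haemoglobin shares and limma voom. The fits were run on simulated data with independent genes and effects larger than those of any member, which does not measure their power here. Members, lists and tests were chosen with earlier results of these data known. Named genes were the members, the kinases, Ppp1r15b, Atf3, the 2 most abundant genes of each list, any called gene and the 5 most alike in pattern; fold changes are given for members and for other genes of these with an unadjusted p under 0.1, and genes named after their values were seen are marked. Older symbols (Cars, Eprs, Kars) stand for 3 list entries, and of 117 pathway entries 116 were matched. Alternatives covered pseudocounts of 0.1 and 0.01, filters, scalings, limma settings, a haemoglobin covariate and left-out libraries. Figures used matplotlib 3.10.9.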

Additional observations from a re-analysis of the deposited data

Results flagged for a closer look

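Of 74 groups of 4 libraries examined (37 genes in 2 groups), 9 held a library far from the other 3. The cutoff flags about 1 in 20 groups when values are independent and normally distributed. Whether that holds for FPKM of genes from the same libraries was not tested, so the count cannot show whether there is an excess. Among members, Atf4 was 175 FPKM in FeCl3 replicate 2, with 120 to 126 FPKM in the other FeCl3 libraries, and Sesn2 was 21.1 FPKM in saline replicate 2, with 4.72 to 6.01 FPKM in the other controls.

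FeCl3 libraries also held a low Eif2ak1 in replicate 2 (10.2 FPKM, others 17.8 to 18.6), a low Ppp1ca in replicate 3 (67.6 FPKM, others 118 to 121), and a high Got1 (20.2 FPKM, others 6.47 to 7.77) and Sqstm1 (127 FPKM, others 58.9 to 66.5) in replicate 1. Saline libraries held a low Eif2ak2 in replicate 1 (6.27 FPKM, others 14.0 to 14.4) and a high Ppp1r15b (26.6 FPKM, others 10.5 to 12.2) and Syap1 (51.9 FPKM, others 26.9 to 29.9) in replicate 2.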

How the results depend on the processing

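No member was called under any of 22 alternatives, where the smallest adjusted p was 0.0606 (Atf4, FPKM rescaled to TPM). Over all genes 0 were called except with TPM scaling, without saline replicate 4 and without saline replicates 1 and 4 together (51). With TPM 3288 were called (27.6% of all tested genes), of them 38 of the 98 tested pathway genes beyond the members. Without saline replicate 4 it was 160, and 1 pathway gene, Aars1 (0 to 160 and 0 to 1 with each library left out). TPM scaling moved the median of all genes to -0.90. There Asns was -0.069, Psat1 -0.10, Phgdh -0.16, Ddit4 -0.54 and Map1lc3b -0.043. Without saline replicates 1 and 4 together, Asns was -0.27, Phgdh -0.53, Ddit4 -0.12 and Ppp1r15a 0.064. Ddit3 was 0.12 with median-of-ratios scaling, 0.12 with quantile normalization, 0.20 with haemoglobin left out of totals, 0.016 with array weights, 0.28 with the haemoglobin covariate and 0.14 with limma voom. Ppp1r15a was 0.029, 0.037, 0.11 and 0.044 with median-of-ratios, quantile, haemoglobin-free and voom values. With the haemoglobin covariate, which can hardly be separated from treatment, Atf4 was 0.36, Sesn2 0.13, Slc38a2 0.053 and Map1lc3b -0.0048. With each library left out in turn, fold changes ran from -0.11 to 1.23 for Asns, -0.11 to 1.33 for Psat1, -0.37 to 1.39 for Phgdh, -0.11 to 0.71 for Ddit4 and -0.30 to 0.0011 for Ddit3. The cause of these changes was not tested. Of 22 further named genes given by level alone, 20 changed sign in some alternative. No paired analysis was possible because the sample titles of the groups share fewer than 2 numbers; replicate numbers here only name the libraries. Counting error bears most on Trib3 and Chac1, with as few as 6 and 5 fragments in a library, though both varied beyond it.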
